A study of Mus musculus with 10 samples.

Results

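Mouse embryonic stem (ES) cells with 3 copies of chromosome 6 (Ts6, 2 arrays) were set against diploid ES cells of the male line AB1 (WT, 2 arrays), 4 of the 10 arrays of the series. The Ts6 cells had been grown to passage 9 (replicate 1) and passage 18 (replicate 2), and the WT cells to passages 18 (replicate 1) and 20 (replicate 2). The labels give the strain of Ts6 as 129 S7/SvEvBrd and that of WT as AB1, and name no parent line for Ts6, so line, passage and extra chromosome cannot be told apart. The other 6 arrays came from cells trisomic for chromosome 8, 11 or 15 (Ts8, Ts11 and Ts15, 2 arrays each), in which chromosome 6 is diploid as in WT. All cells grew on γ-irradiated SNL76/7 feeder cells, which were depleted by settling before RNA was extracted. Genes were placed by the mm9 position of their probe, and 1454 of the 28188 genes tested lay on chromosome 6. Probes had to be well above background on both arrays of some line, and a gene was read from its brightest probe. No other rule or measured value was used to choose these genes. Where each probe lies in its transcript (exon or untranslated region) was not analysed here.

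A gene present in 3 copies has an additional template for transcription, so its transcript can rise in proportion to the copies, rise less, or stay level where feedback or a limiting activator sets its amount. ES cells in culture gain whole chromosomes, and mouse chromosome 6 carries Nanog, a transcription factor of the pluripotency network, the Hoxa cluster, the kinase gene Braf, and a set of genes normally used in germ cells. Many germ-cell genes are held silent in other cells by DNA methylation at CG dinucleotides of their promoters, and ES cells let some of them through at low levels.

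For 3 germ-cell genes of chromosome 6 that rose in Ts6, the promoters are shown for their CG content, from the RefSeq promoter table (build GRCm38.p6, which differs from the mm9 build of the probes). Each window runs from 250 bases before to 50 bases after the start of the gene, 5′ to 3′ on the coding strand, with every CG dinucleotide in capitals. Asz1 encodes a protein of the piRNA pathway that silences transposons in germ cells, Figla an oocyte transcription factor, and Stk31 a Tudor-domain protein of germ cells. The windows lie on chromosome 6 at 18109012 to 18109311 (Asz1, minus strand), 86016941 to 86017240 (Figla, plus strand) and 49395289 to 49395588 (Stk31, plus strand, the first of its 2 entries).
Asz1: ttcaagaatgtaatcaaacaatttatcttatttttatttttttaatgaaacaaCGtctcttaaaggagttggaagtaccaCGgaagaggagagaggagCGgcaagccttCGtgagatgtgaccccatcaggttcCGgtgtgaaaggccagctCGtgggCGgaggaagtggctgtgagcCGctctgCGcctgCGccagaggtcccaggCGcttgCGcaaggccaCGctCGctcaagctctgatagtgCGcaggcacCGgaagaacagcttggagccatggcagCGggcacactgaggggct
Figla: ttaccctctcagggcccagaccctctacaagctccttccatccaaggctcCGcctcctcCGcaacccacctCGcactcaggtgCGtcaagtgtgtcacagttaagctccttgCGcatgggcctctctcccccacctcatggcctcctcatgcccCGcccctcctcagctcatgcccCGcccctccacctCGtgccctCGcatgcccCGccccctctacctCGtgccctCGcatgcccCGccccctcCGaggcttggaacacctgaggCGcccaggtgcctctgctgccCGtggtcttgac
Stk31: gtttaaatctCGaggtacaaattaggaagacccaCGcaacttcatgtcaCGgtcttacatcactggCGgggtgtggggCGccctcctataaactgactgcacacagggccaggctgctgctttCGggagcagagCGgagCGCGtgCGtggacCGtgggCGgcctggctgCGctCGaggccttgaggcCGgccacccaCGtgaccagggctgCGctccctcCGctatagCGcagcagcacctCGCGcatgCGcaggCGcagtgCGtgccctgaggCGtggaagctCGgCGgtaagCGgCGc
The Asz1 window holds 17 CG dinucleotides, that of Figla 16 and that of Stk31 29, against a median of 7 over the 32851 windows of this length in the table, of 15 over those of the chromosome 6 genes tested and of 17 over those of the chromosome 6 genes called higher. At least as many stood in 31.4% of all windows for Asz1, 33.0% for Figla and 12.9% for Stk31. The palindromic E-box CACGTG was found once in the Stk31 window and not in the others, against 7.15% of all windows.

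Both Ts6 arrays had 71.6% and 71.5% of noncontrol spots well above background, against 77.9% and 78.5% in the WT arrays, and precision is limited by there being 2 arrays a group. WT and Ts6 lay on 1 slide, in slide columns of their own, so slide column and line cannot be told apart. Levels are log2 of the signal relative to the 75th percentile of the array, and differences are Ts6 minus WT on that scale. Each difference carries its standard error (SE, n = 2 arrays a group) and its adjusted p from limma over all genes tested, with a call at an adjusted p under 0.05. Nothing in the labels says that replicates came from separate clones, so p-values measure only the spread between these samples. The ES cell markers were all 8 well above background on all 10 arrays, with a summed level of 147 and 142 in Ts6 against 158 and 150 in WT (linear scale, in units of the 75th percentile). Fibroblast markers, for the feeder cells, had a summed level of 74.1 and 85.9 in Ts6 against 92.5 and 95.7 in WT over 24 genes outside chromosome 6. Of these 24, 22 were well above background on all 4 arrays, none rose, 3 fell (Col5a2 by 1.20, Mmp14 by 0.83 and Pdgfra by 0.70) and the median difference was -0.41. Of all genes tested outside chromosome 6, 3.92% rose and 4.6% fell. None of these 3 was called without Ts6 replicate 1 or without either WT replicate, and Pdgfra was not called without Ts6 replicate 2 either. Col5a2 was well above background on 1 of the Ts6 arrays. Postn, a matrix protein of fibroblasts, was not well above background on either Ts6 array. Endoderm markers had a summed level of 48.8 and 48.7 in Ts6 against 49.3 and 47.2 in WT. In such bulk samples, fewer cells of a type and less RNA per cell cannot be told apart.

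As a whole, chromosome 6 stood higher in Ts6. The shift of a chromosome was the mean over its genes of an array's difference from the WT mean, less the same mean over the 15 autosomes trisomic in no line. Over the 1454 chromosome 6 genes it was 0.20 in Ts6 replicate 1 and 0.20 in replicate 2, against -0.01 and 0.01 in the WT arrays. Across the 6 arrays of the other lines it lay between -0.05 and -0.01. Both Ts6 arrays were above all 8 others, with an exact two-sided permutation p of 0.022, the smallest that 45 splits allow. The mean shift of 0.20 corresponds to 1.15-fold, or 34.1% of the log2(3/2) of 0.58 that 3 copies in place of 2 would give at proportional output. How far array signal follows transcript amount in proportion was not tested. By the same measure the highest array of the other lines stood at 0.26 for chromosome 8, 0.23 for chromosome 11 and 0.23 for chromosome 15. The other 18 autosomes shifted by between -0.05 and 0.03 in Ts6. Of them chromosome 9, at 0.03, had the same exact permutation p of 0.022, and chromosome 12, at -0.05, had 0.044. These p-values were not adjusted over the chromosomes. Setting the Ts6 and WT arrays of passage 18 against each other gave the same shift of 0.20, an alternative added after the data were seen, with 1 array a side and no test.

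**Figure D1:**
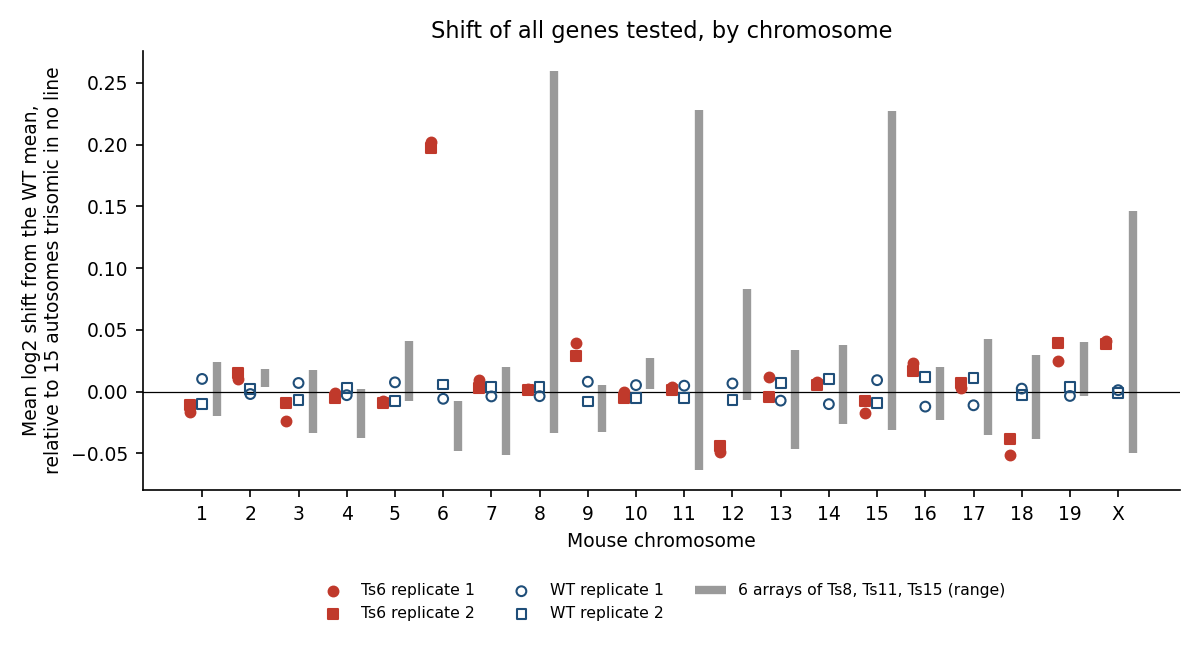
Mean log2 shift of each chromosome (x axis; Y left out) in each array (y axis, log2), less that of the 15 autosomes diploid in every line. Filled red points are the 2 Ts6 arrays, open blue points the 2 WT arrays and grey bars the range of the 6 arrays of Ts8, Ts11 and Ts15; chromosome 6 of Ts6 stands at 0.20, and the high ends of the bars at 8, 11 and 15 belong to the lines trisomic for them.

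The shift depended on which genes were counted. Over the 824 protein-coding RefSeq genes it was 0.24 in both Ts6 arrays, and over the 350 of them brighter than the 75th percentile it was 0.30 and 0.28, against 0.04 and -0.04 in WT. Long intergenic noncoding RNAs (lincRNAs) of chromosome 6, 240 in all, shifted by 0.15 and 0.14 in Ts6. The 33 immunoglobulin kappa segments, which ES cells do not use, stayed at 0.02 and 0.04 in Ts6, with a median WT level of -4.02. The 8 T-cell receptor beta segments, also unused in ES cells and dimmer (median WT level -5.05), shifted by 0.27 and 0.27 in Ts6, against -0.25 and 0.25 in WT. The 18 Zfp zinc finger genes shifted by 0.45 and 0.48, with 6 called higher and 1 lower. Receptor families at the low end of the signal range had no common direction: the 9 Tas2r bitter taste receptors shifted by 0.34 and 0.34, the 12 Vmn pheromone receptors by -0.02 and 0.01, and the 6 Olfr odorant receptors by -0.59 and -0.65. For the 23 lectin-like receptor genes (Klr and Clec) the arrays differed, at -0.25 in Ts6 replicate 1 and 0.04 in replicate 2. These family shifts are descriptions without a test.

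Among the 350 bright protein-coding genes, the tenth, fiftieth and ninetieth percentiles of the difference were -0.16, 0.27 and 0.64 on chromosome 6. Among 7169 such genes on other chromosomes they were -0.30, 0.01 and 0.30. The 95% interval of the difference lay wholly below log2(3/2) for 184 of the 350, held it for 161 and lay wholly above it for 5. For 162 of them the interval lay wholly above 0, and for 13 wholly below.

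**Figure D2:**
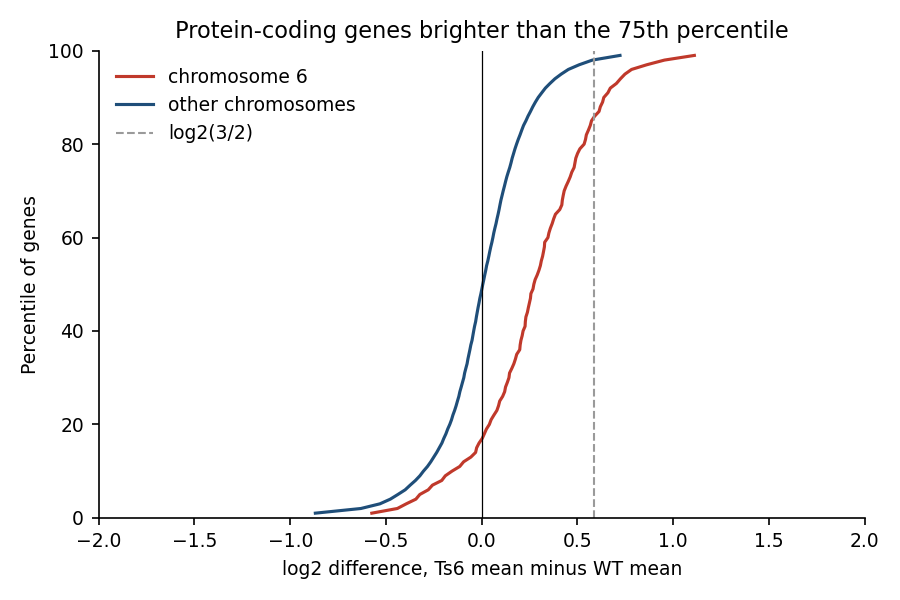
Percentile (y axis) of the log2 difference between the Ts6 and WT means (x axis) among protein-coding RefSeq genes brighter than the 75th percentile, for the 350 genes of chromosome 6 (red) and the 7169 of other chromosomes (blue). The dashed line marks log2(3/2); the red curve crosses the fiftieth percentile at 0.27 and the blue one at 0.01.

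Gene by gene, 208 of the 1454 chromosome 6 genes rose and 34 fell, where 4.44% of all genes tested rose and 4.59% fell. On chromosome 6 that was 14.3% and 2.34%. Of the 208, 46 rose by less than 1.5-fold, 102 by 1.5-fold to 2-fold and 60 by more than 2-fold. With 2 arrays a group a call favours large differences, so this split does not give the size of the rise over all chromosome 6 genes. Above their WT mean stood 64.7% of the chromosome 6 genes, against 47.5% of genes elsewhere. Against the mean of Ts8, Ts11 and Ts15, a comparison that shares the Ts6 arrays, 370 chromosome 6 genes were higher (25.4%) and 50 lower (3.44%). Of all genes 6.68% were higher and 6.64% lower there, and of genes outside chromosome 6 5.69% and 6.67%. The count of 370 became 54 without Ts6 replicate 1 and 139 without Ts6 replicate 2. The count of 208 fell to 40 without Ts6 replicate 1, 98 without Ts6 replicate 2, 96 without WT replicate 1 and 82 without WT replicate 2, and was 47 with passage as a covariate. Of the 65 chromosome 6 genes that the naming rule covers and that were called, 16 kept their call in all 4 fits with 1 array left out: Dppa3, A2m, Asz1, Figla, Fxyd4, Ninj2, Pon3, Podxl2, Aebp2, Zfp800, Agbl3, Slc41a3, Kdm7a, Skap2, Prb1 and Oxtr. The 208 were spread over the array as all chromosome 6 genes were, with 50.5% in its right part against 50.4%.

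Along the chromosome the increase was called in most intervals, but not in the first 10 Mb or in interval 7. In 10 Mb intervals counted from the proximal end, 13 of 15 were higher in both Ts6 arrays than in any of the other 8 arrays (exact permutation p = 0.022 each, 0.026 after Benjamini-Hochberg adjustment over the intervals). Among the 197 intervals of the 15 autosomes trisomic in no line, 12 (6.09%) were at that p and higher, and 18 at that p and lower. Over these 197 the shift ran from -0.54 to 0.25. The shift was above 0.15 in 12 of the 15 and in 3 of the 197. The highest stood in interval 11, from 100 to 110 Mb, at 0.44 and 0.30 over 36 genes, against 0.05 and -0.05 in WT. It was followed by interval 12 at 0.32 and 0.29 and interval 10 at 0.32 and 0.25, against between -0.01 and 0.01 in WT for both. Interval 7, from 60 to 70 Mb, stood at -0.07 and -0.05, within the range of the other arrays. Of its 67 genes 21 are immunoglobulin kappa segments, and its 14 protein-coding RefSeq genes shifted by 0.14 ± 0.11 (SD, n = 2). Over those 14, fewer than the 20 asked of a tested interval, the exact permutation p was 0.022, unadjusted. The first 10 Mb stood at 0.11 and 0.05 in Ts6, against -0.05 and 0.05 in WT, and was not called (adjusted p = 0.14). Interval 5, from 40 to 50 Mb, was low among those called, at 0.08 and 0.06 against -0.04 and 0.04 in WT. Interval 6, which holds the Hoxa cluster, shifted by 0.18 over all its genes and by 0.05 ± 0.06 over its 61 protein-coding ones, where its exact permutation p was 0.067.

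**Figure D3:**
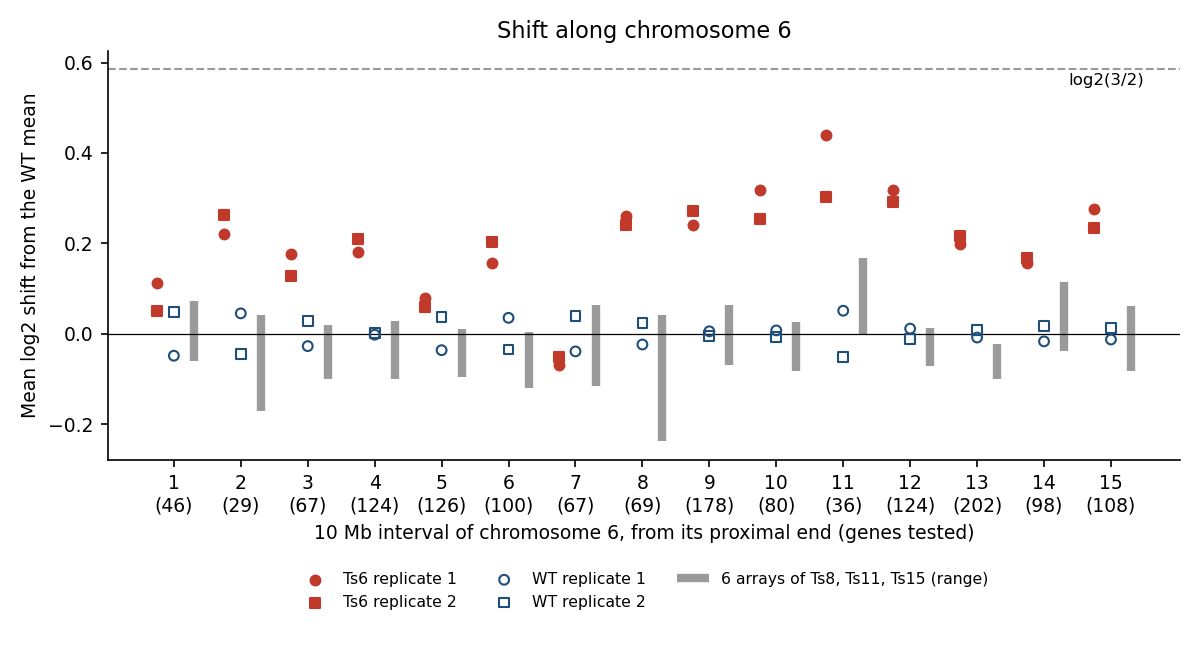
Mean log2 shift (y axis) of the genes in each 10 Mb interval of chromosome 6 (x axis, interval number from the proximal end with the number of genes tested) in the 2 Ts6 arrays (filled red), the 2 WT arrays (open blue) and the range of the 6 arrays of Ts8, Ts11 and Ts15 (grey bars). Interval 7 lies at -0.07 and -0.05 and interval 11 at 0.44 and 0.30; the dashed line marks log2(3/2).

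A gene picked as the extreme of its interval does not stand for the other genes there. The gene of the smallest adjusted p in each interval, among its called genes with non-overlapping groups, is given next. In interval 1 it was Pon3, a lactonase gene (mm9, chromosome 6, 5171553 to 5171612), at -1.23 and -1.76 in Ts6, against -2.88 and -2.74 in WT. Its difference was 1.32 ± 0.19 (adjusted p = 0.0059), with both Ts6 arrays above both WT arrays. Zfp800, a zinc finger gene in interval 3, was at -0.93 and -0.86 in Ts6, against -1.94 and -1.94 in WT, a difference of 1.04 ± 0.13 (adjusted p = 0.0031). In interval 4 Agbl3, which encodes a deglutamylase of tubulin, rose by 1.02 ± 0.14 (adjusted p = 0.0057), and in interval 5 Gstk1, a glutathione transferase of mitochondria and peroxisomes, by 1.10 ± 0.17 (adjusted p = 0.0091). Skap2, an adaptor of Src kinases in interval 6, was at 1.50 and 1.49 in Ts6, against 0.65 and 0.78 in WT. It rose by 0.78 ± 0.10 (adjusted p = 0.0039), and its levels within a group differed by less than the gap between groups. Interval 7 held a single riser, Il12rb2, a chain of the interleukin 12 receptor, at -2.32 and -2.10 in Ts6, against -3.57 and -3.13 in WT. That difference of 1.14 ± 0.28 (adjusted p = 0.048) lost its call without any 1 of the 4 arrays.

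Further along, Thnsl2 (interval 8), a threonine synthase-like gene, rose by 1.09 ± 0.17 (adjusted p = 0.0078). Podxl2, a sialomucin gene in interval 9 (mm9, chromosome 6, 88793527 to 88793586), was at -1.12 and -1.26 in Ts6, against -2.31 and -2.56 in WT, and rose by 1.25 ± 0.12 (adjusted p = 0.0015). Slc41a3, a magnesium transporter gene in interval 10, rose by 0.95 ± 0.13 (adjusted p = 0.0051) and Setmar, a histone methyltransferase gene in interval 11, by 0.70 ± 0.14 (adjusted p = 0.023). Both lie in the stretch of the highest interval shifts. In interval 12 the smallest p belonged to a gene that fell, Oxtr, and in interval 13 to Ninj2; both are given with the extremes. Prb1, a salivary proline-rich protein gene in interval 14, rose by 0.77 ± 0.11 (adjusted p = 0.0058). Close to the distal end, in interval 15, Aebp2, a partner of the Polycomb complex PRC2 (mm9, chromosome 6, 140596546 to 140596605), was at 1.07 and 0.97 in Ts6, against 0.02 and -0.12 in WT, a difference of 1.07 ± 0.14 (adjusted p = 0.0048). These genes span the chromosome. Oxtr was the only one of the 15 chosen this way that fell, and of all called chromosome 6 genes 208 rose and 34 fell. Calls of Gstk1, Thnsl2 and Setmar were lost without Ts6 replicate 1. Those of Gstk1 and Setmar were also lost without WT replicate 2, and that of Setmar without Ts6 replicate 2.

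Among the highest genes of the chromosome were several known from germ cells and early embryos. Dppa3, whose protein is laid down in the egg and shields methylated DNA in the zygote (mm9, chromosome 6, 122580207 to 122580266), was at 0.58 and 0.07 in Ts6, against -2.68 and -2.76 in WT. Both Ts6 arrays lay far above both WT arrays, a difference of 3.05 ± 0.35 (adjusted p = 0.0026). Against the other trisomic lines Dppa3 differed by 1.32 (adjusted p = 0.024). Asz1 (mm9, chromosome 6, 18005508 to 18021991) was at -1.66 and -1.98 in Ts6, against -4.37 and -3.96 in WT. It rose by 2.35 ± 0.19 (adjusted p = 0.00064), and its difference from the other lines was 2.47 (adjusted p = 0.00029). Figla (mm9, chromosome 6, 85970895 to 85970954) was at -1.80 and -2.08 in Ts6, against -3.47 and -3.55 in WT, and rose by 1.57 ± 0.16 (adjusted p = 0.0016). Against the other lines its difference was 0.40 (adjusted p = 0.085) and was not called. Stk31 (mm9, chromosome 6, 49397301 to 49397360) was at -1.28 and -1.29 in Ts6, against -2.53 and -2.82 in WT, a difference of 1.39 ± 0.25 (adjusted p = 0.016) that lost its call without either Ts6 replicate or without WT replicate 2, at adjusted p of up to 0.10. Against the other lines Stk31 differed by 0.76 (adjusted p = 0.0504), just short of a call, so that of these 4 genes Dppa3 and Asz1 were called in both comparisons, which share the Ts6 arrays.

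**Figure D4:**
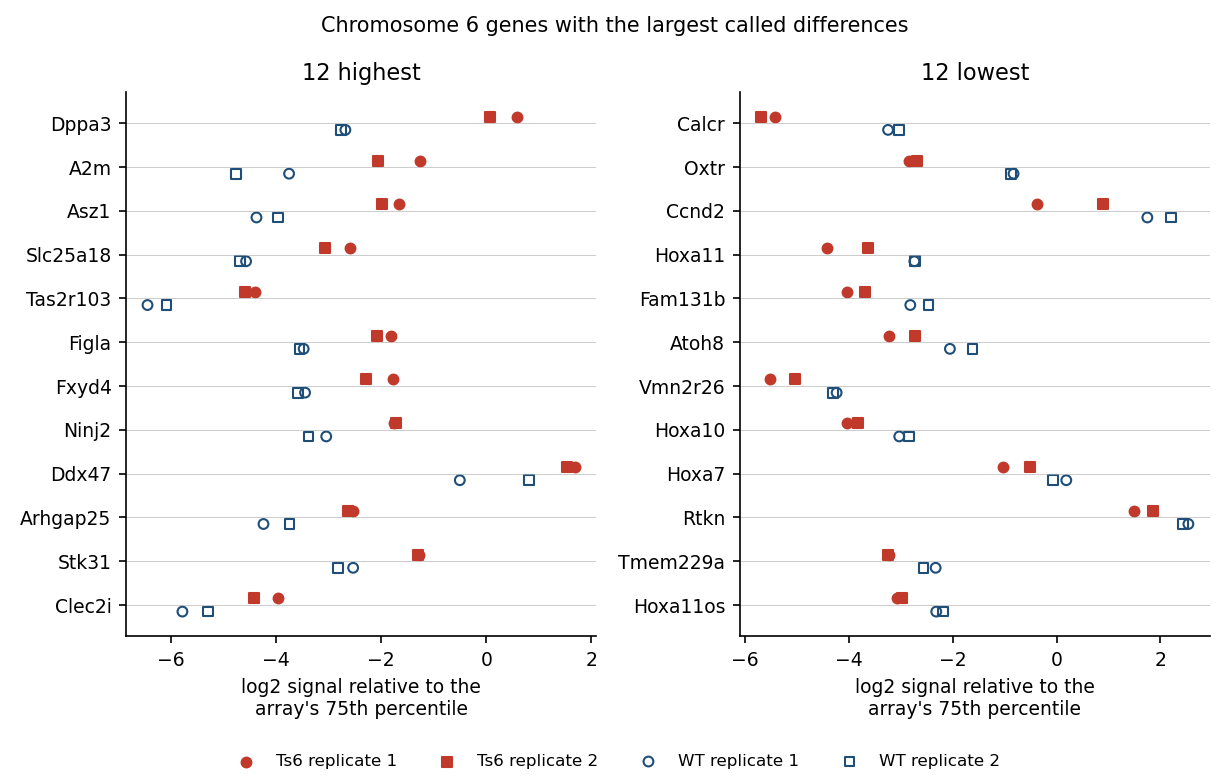
Level of the 12 highest and 12 lowest called chromosome 6 genes of the naming rule in each array (x axis, log2 signal relative to the array's 75th percentile; genes down the page). Filled red points are the Ts6 arrays and open blue points the WT arrays; in each gene the 2 Ts6 arrays lie on one side of the 2 WT arrays.

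Other high genes have roles in other tissues. A2m, which encodes the protease inhibitor alpha-2-macroglobulin (mm9, chromosome 6, 121610887 to 121610946), was at -1.26 and -2.05 in Ts6, against -3.75 and -4.76 in WT. It rose by 2.60 ± 0.38 (adjusted p = 0.0063), and both groups spread widely between replicates. Slc25a18, a mitochondrial glutamate carrier gene, rose by 1.79 ± 0.27 (adjusted p = 0.0073), and Fxyd4, a regulator of the sodium pump, by 1.49 ± 0.22 (adjusted p = 0.0068). Fxyd4 also differed from the other lines, by 1.90 (adjusted p = 0.00093). Ninj2, an adhesion protein gene (mm9, chromosome 6, 120150293 to 120150352), was at -1.76 and -1.72 in Ts6, against -3.04 and -3.38 in WT, a difference of 1.47 ± 0.16 (adjusted p = 0.0019). Against the other trisomic lines it differed by 0.00 (adjusted p = 1). Ddx47, an RNA helicase gene of ribosome assembly, was at 1.69 and 1.54 in Ts6, against -0.50 and 0.81 in WT, with a wide gap between the WT arrays. Its difference was 1.46 ± 0.36 (adjusted p = 0.046), which was lost without either Ts6 replicate. Arhgap25, a GTPase-activating protein gene for Rac, rose by 1.41 ± 0.24 (adjusted p = 0.012). Tas2r103, a taste receptor gene, rose by 1.77 and Clec2i, a lectin gene, by 1.35; both had low levels in all 4 arrays, between -3.97 and -6.45. Clec9a, a lectin gene of dendritic cells, was not well above background in WT and was at least 3.28-fold higher in Ts6 (adjusted p = 0.023). Its probe and those of 8 of the 12 highest genes lie in the right part of the array. Of risers elsewhere that were well above background on neither WT array, 86.6% lie there too, and of all such genes tested elsewhere 69.1%; the part of array position in these values was not tested.

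Of the 34 genes that fell, the lowest by the naming rule follow, those of the Hoxa cluster apart. Oxtr, the oxytocin receptor gene (mm9, chromosome 6, 112423686 to 112423745), was at -2.84 and -2.69 in Ts6, against -0.83 and -0.88 in WT. It fell by 1.91 ± 0.19 (adjusted p = 0.0013), and its difference from the other lines was -1.47 (adjusted p = 0.0014). Calcr, the calcitonin receptor gene (mm9, chromosome 6, 3635940 to 3635999), was at -5.42 and -5.69 in Ts6, against -3.25 and -3.04 in WT, and fell by 2.41 ± 0.40 (adjusted p = 0.012). That call was lost without Ts6 replicate 1, Ts6 replicate 2 or WT replicate 2, at adjusted p of up to 0.063. Ccnd2, the gene of cyclin D2 (mm9, chromosome 6, 127098696 to 127098755), was at -0.39 and 0.89 in Ts6, against 1.75 and 2.21 in WT. It fell by 1.72 ± 0.37 (adjusted p = 0.029), but the passage 9 Ts6 array lay well below the passage 18 one, and the call was lost without Ts6 replicate 1 or either WT array (adjusted p of up to 0.14). Atoh8, a helix-loop-helix factor gene, fell by 1.15 ± 0.27 (adjusted p = 0.039), Fam131b by 1.22 ± 0.29 (adjusted p = 0.04), and Rtkn, which encodes an effector of small GTPases, by 0.81 ± 0.18 (adjusted p = 0.033). Tmem229a fell by 0.80 ± 0.13 (adjusted p = 0.012) and Vmn2r26, a pheromone receptor gene at the low end of the signal range, by 1.01 ± 0.23 (adjusted p = 0.034). None of these 5 kept its call in all 4 fits with 1 array left out. Of these 8 genes Oxtr and Rtkn were also called lower against the other lines, Rtkn with a difference of -0.58 (adjusted p = 0.04). Gkn2, a gastrokine gene outside the naming rule and chosen after its values were seen (mm9, chromosome 6, 87329285 to 87329344), was at -4.64 and -5.83 in Ts6, against -0.64 and -1.75 in WT. It was well above background on 1 of the Ts6 arrays, and differed from WT by -4.04 ± 0.61 (adjusted p = 0.0077). Bounds downward were 1.73-fold for Adcyap1r1, a neuropeptide receptor gene (adjusted p = 0.0057), 1.21-fold for Lrrn1 and 1.08-fold for Slco1a1, as at least that much lower in Ts6.

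Of 17 pluripotency and germ-line genes on the chromosome 4 rose (Asz1, Figla, Dppa3 and Bcat1), where 14.3% of all chromosome 6 genes rose, and none fell. In all 14 of the 17 stood above their WT mean, with a median of 0.21, against 0.15 over all chromosome 6 genes and -0.01 over all genes tested. Of the 824 protein-coding RefSeq genes of the chromosome 19.1% rose and 2.79% fell, with a median of 0.24. That background applies to the chromosome 6 lists below as well. Nanog (mm9, chromosome 6, 122663676 to 122663735) was at 4.87 and 4.84 in Ts6, against 5.15 and 5.12 in WT, a difference of -0.28 ± 0.11 (adjusted p = 0.15), with both Ts6 arrays below both WT arrays. Of its 2 probes 1 had the other sign. Gdf3, a growth factor gene beside it, was at 2.94 and 3.06 in Ts6, against 3.06 and 2.76 in WT, a difference of 0.09 ± 0.14 (adjusted p = 0.75), and Slc2a3, a glucose transporter gene in the same stretch, at 4.54 and 4.49 in Ts6, against 4.33 and 4.43 in WT. Dppa3 lies between Gdf3 and Nanog and was the one of these 4 genes that was called. Bcat1, a branched-chain amino acid transaminase gene of ES cells, was at 2.72 and 2.68 in Ts6, against 2.23 and 2.06 in WT and lost its call without any 1 array. Differences of 0.21 in Tcf7l1, a repressor in the Wnt pathway, and 0.35 in Stra8, the retinoic acid response gene of meiosis, were not called (adjusted p = 0.3 and 0.24).

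Among genes of growth signalling, members of several pathways rose while the list had no common direction. Braf, a kinase upstream of MEK (mm9, chromosome 6, 39553758 to 39553817), was at 0.35 and 0.55 in Ts6, against -0.42 and -0.19 in WT, a difference of 0.75 ± 0.16 (adjusted p = 0.028). Both Ts6 arrays lay above both WT arrays, and the difference exceeded the log2(3/2) of 0.58 by about its SE. Lrp6, a Wnt co-receptor gene, rose by 0.59 ± 0.12 (adjusted p = 0.025), Vhl, a ubiquitin ligase subunit gene of oxygen sensing, by 0.62 ± 0.10 (adjusted p = 0.0095), Dusp16, a phosphatase gene for MAP kinases, by 0.67 ± 0.13 (adjusted p = 0.022), and Rassf8 by 0.73 ± 0.18 (adjusted p = 0.049). Against the other trisomic lines Braf differed by 0.70 (adjusted p = 0.014), Lrp6 by 0.56 (adjusted p = 0.012) and Vhl by 0.59 (adjusted p = 0.0046). The receptor substrate gene Eps8 fell by 0.56 ± 0.13 (adjusted p = 0.036). Smo, the Hedgehog signal transducer gene, was at 4.63 and 4.59 in Ts6, against 5.09 and 4.59 in WT, a difference of -0.23 without a call (adjusted p = 0.48). The chemokine gene Cxcl12 differed by -0.82 and the caveolin gene Cav2 by -0.60, without a call (adjusted p = 0.0501 and 0.17). In all 7 of 30 rose and 1 fell, where 14.3% and 2.34% of all chromosome 6 genes did, with a median of -0.08. Without Ts6 replicate 1 no member was called, and without each of the other 3 arrays 2 were called higher.

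Of 28 chromatin genes 6 rose, where 14.3% of all chromosome 6 genes and 19.1% of the protein-coding ones rose, and none fell. The list had a median of 0.32, with 25 of the 28 above their WT mean. Kdm7a, a histone demethylase gene (mm9, chromosome 6, 39091872 to 39091931), was at -3.86 and -3.72 in Ts6, against -4.87 and -4.57 in WT, and rose by 0.93 ± 0.14 (adjusted p = 0.0069). Brpf1, a scaffold gene of histone acetyltransferase complexes, was at 1.17 and 1.15 in Ts6, against 0.51 and 0.48 in WT, a difference of 0.66 ± 0.12 (adjusted p = 0.017). Mxd1, a partner of MAX, rose by 0.63 ± 0.12 (adjusted p = 0.017), Zc3hav1, an antiviral zinc finger gene, by 0.51 ± 0.10 (adjusted p = 0.021), and Ing3, a subunit gene of the NuA4 acetyltransferase, by 0.42 ± 0.11 (adjusted p = 0.049). The methyltransferase gene Ezh2 of PRC2 was at 2.47 and 2.36 in Ts6, against 2.10 and 2.03 in WT, a difference of 0.35 ± 0.12 (adjusted p = 0.11). Tet3, a dioxygenase that oxidises methylcytosine, differed by 0.37, and Chd4, a remodeller of the NuRD complex, by -0.10, without a call (adjusted p = 0.26 and 0.6). With 1 array left out, between 1 and 2 members were called higher, Kdm7a in each case.

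Of 23 cell cycle and repair genes 5 rose, where 14.3% of all chromosome 6 genes and 19.1% of the protein-coding ones rose. Of the 23, 1 fell, Ccnd2. In all 22 stood above their WT mean, called or not, with a median of 0.35. In the comparison with the other trisomic lines 12 of the 23 were called higher and none lower. Of all chromosome 6 genes 25.4% were higher there, and of the 824 protein-coding ones 275. Fancd2, of the Fanconi anaemia repair pathway, was at -0.05 and -0.23 in Ts6, against -0.72 and -1.17 in WT, a difference of 0.80 ± 0.16 (adjusted p = 0.024). Rad51ap1, a gene of recombination repair, rose by 0.70 ± 0.13 (adjusted p = 0.016), Nup210, a nuclear pore gene, by 0.66 ± 0.14 (adjusted p = 0.027), Cul1, a scaffold gene of SCF ubiquitin ligases, by 0.56 ± 0.14 (adjusted p = 0.044), and Rpa3, of the single-strand binding complex RPA, by 0.49 ± 0.10 (adjusted p = 0.023). Mad2l1, of the spindle checkpoint (mm9, chromosome 6, 66490836 to 66490895), was at 3.59 and 3.33 in Ts6, against 3.00 and 2.89 in WT, and at 0.51 ± 0.14 (adjusted p = 0.061) stayed just short of a call. Ncapd2 of condensin differed by 0.63, Cdca3 by 0.43, Foxm1 by 0.35 and Mcm2 by 0.18, none called (adjusted p = 0.051, 0.071, 0.15 and 0.38). Between 0 and 2 members were called higher with 1 array left out.

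Of 44 genes for subunits of protein complexes 41 were above their WT mean, with a median of 0.25. In the comparison with the other trisomic lines 19 of the 44 were called higher and none lower. Of all chromosome 6 genes 25.4% were higher there, and of the 824 protein-coding ones 275. Against WT 7 of the 44 rose, a share near the 14.3% of all chromosome 6 genes, and none fell. Eif4e3, a cap-binding protein gene, was at -1.11 and -1.39 in Ts6, against -2.26 and -2.44 in WT, the largest of them with 1.10 ± 0.17 (adjusted p = 0.0091). Capza2, of the actin capping protein, was at 1.66 and 1.41 in Ts6, against 0.84 and 0.73 in WT, and rose by 0.75 ± 0.12 (adjusted p = 0.0098). Copg2 of the COPI coat rose by 0.64 ± 0.12 (adjusted p = 0.018), Exoc4 of the exocyst by 0.67 ± 0.14 (adjusted p = 0.025), Med21 of Mediator by 0.51 ± 0.12 (adjusted p = 0.04) and Cops7a of the signalosome by 0.48 ± 0.12 (adjusted p = 0.043). Rpl32, a ribosomal protein gene, was at 5.19 and 5.03 in Ts6, against 5.40 and 4.87 in WT, a difference of -0.02 ± 0.18 (adjusted p = 0.96). Hnrnpa2b1, an RNA-binding protein gene, differed by 0.01 and Cct7, of the chaperonin TRiC, by 0.18, without a call (adjusted p = 0.98 and 0.4). Between 0 and 5 members were called higher with 1 array left out.

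Among 23 metabolic genes 3 rose, a share near the 14.3% of all chromosome 6 genes, none fell and 20 stood above their WT mean, with a median of 0.28. Between 0 and 2 members were called higher with 1 array left out, 0 of them without Ts6 replicate 1 or WT replicate 2. Gfpt1, which commits sugar to the hexosamine pathway, was at 2.14 and 2.15 in Ts6, against 1.46 and 1.37 in WT, and rose by 0.72 ± 0.14 (adjusted p = 0.022). Asns, asparagine synthetase, was at 4.39 and 4.53 in Ts6, against 3.98 and 3.50 in WT, a difference of 0.72 ± 0.16 (adjusted p = 0.035). Glycolytic genes with very high signals were not called: Gapdh was at 5.52 and 5.68 in Ts6, against 5.80 and 5.37 in WT, a difference of 0.02 ± 0.16 (adjusted p = 0.96), and Tpi1 at 4.66 and 4.54 in Ts6, against 4.45 and 4.32 in WT, a difference of 0.21 ± 0.12 (adjusted p = 0.32). Of 7 Gapdh probes 4 lay above 0. Hk2, a hexokinase gene, differed from WT by 0.32 (adjusted p = 0.34) and from the other lines by 0.61 (adjusted p = 0.037). Mthfd2, of mitochondrial one-carbon metabolism, differed by 0.87 and was not called (adjusted p = 0.058).

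The Hoxa cluster, which patterns the trunk and limbs and is largely silent in ES cells, held 5 genes that fell and none that rose. The list had 13 genes tested, Evx1 and Hoxa11os, the antisense gene at Hoxa11, included, with a median of -0.42, where 2.34% of all chromosome 6 genes fell. Hoxa11 (mm9, chromosome 6, 52192107 to 52192166) was at -4.43 and -3.64 in Ts6, against -2.74 and -2.73 in WT, and fell by 1.30 ± 0.27 (adjusted p = 0.028). Hoxa10 was at -4.04 and -3.83 in Ts6, against -3.03 and -2.84 in WT, and fell by 1.00 ± 0.22 (adjusted p = 0.034). Hoxa7 fell by 0.83 ± 0.21 (adjusted p = 0.048), Hoxa9 by 0.74 ± 0.15 (adjusted p = 0.025) and Hoxa11os by 0.78 ± 0.12 (adjusted p = 0.0071). Hoxa13, at the posterior end, was at -1.12 and -1.12 in Ts6, against -1.11 and -1.13 in WT, a difference of 0.00 (adjusted p = 0.997). Toward the anterior end Hoxa2 differed by 0.09 and Hoxa3 by 0.14, neither called (adjusted p = 0.88 and 0.74). Against the other trisomic lines limma called none of the 13, with 5 at an unadjusted p under 0.05 and a median of 0.09. No member was called without Ts6 replicate 1, 1 without each WT replicate, and 4 without Ts6 replicate 2. The fibroblast markers had a median of -0.41 in the same comparison; their part in the Hoxa values was not tested.

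In the imprinted regions of the chromosome, where only the maternal or paternal copy of a gene is used, 2 of 14 genes rose, a share near the 14.3% of all chromosome 6 genes, and 2 fell. With 1 array left out between 1 and 2 members were called higher and between 0 and 1 lower, 0 of them lower without either Ts6 array or without WT replicate 2. Mest, a gene expressed from the paternal copy (mm9, chromosome 6, 30698279 to 30698338), was at 1.88 and 2.00 in Ts6, against 2.48 and 2.45 in WT, and fell by 0.52 ± 0.11 (adjusted p = 0.03). It also differed from the other lines, by -0.55 (adjusted p = 0.0098). Copg2, its neighbour, was among the risers of the complex subunits. Peg10, a retrotransposon-derived gene of the paternal copy, was at -0.02 and -0.20 in Ts6, against 0.13 and 0.34 in WT, a difference of -0.34 ± 0.17 (adjusted p = 0.27), and its neighbour Sgce at 0.81 and 0.31 in Ts6, against 0.52 and 0.06 in WT, a difference of 0.27 ± 0.26 (adjusted p = 0.59). Herc3 differed by 0.48 and Nap1l5, the imprinted gene within it, by -0.12 (adjusted p = 0.074 and 0.86). These arrays do not separate the copies.

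Outside chromosome 6, 1032 of 26331 genes rose (3.92%) and 1211 fell (4.6%), so most called genes in Ts6 were not on the trisomic chromosome. Among the 12 highest by the naming rule, several are known from testis or meiosis. Tex13b, a testis-expressed gene (mm9, chromosome X, 137343845 to 137343904), was at 1.60 and 1.66 in Ts6, against -1.18 and -1.03 in WT, and rose by 2.73 ± 0.19 (adjusted p = 0.00057). Meiob, a meiotic recombination gene, was at -2.38 and -2.73 in Ts6, against -4.44 and -5.64 in WT, a difference of 2.49 ± 0.34 (adjusted p = 0.0055) against WT and of 0.09 (adjusted p = 0.87) against the other trisomic lines. Alox12b, a lipoxygenase gene of skin, was at 0.17 and -0.69 in Ts6, against -2.99 and -3.04 in WT, the highest of these 12 with 2.75 ± 0.33 (adjusted p = 0.003). Zpbp2, a zona pellucida-binding protein of sperm, rose by 2.32 ± 0.24 (adjusted p = 0.0017), Dnaic2, a dynein chain of cilia, by 2.33 ± 0.31 (adjusted p = 0.0043), Tex18 by 2.58 ± 0.44 (adjusted p = 0.012) and Kctd19 by 2.25 ± 0.25 (adjusted p = 0.0023). Tex18 was at the low end of the signal range in WT, at -6.56 and -6.20, and its difference ran from 1.61 to 3.34 over the alternatives. Slc11a1, a metal transporter of macrophages, rose by 2.20 ± 0.22 (adjusted p = 0.0015), Stab2, a scavenger receptor, by 2.27 ± 0.35 (adjusted p = 0.0086), Prss38 by 2.59, Wfdc10 by 2.31 and Klk14, a kallikrein, by 2.28. For Stab2 1 of its 2 probes had the other sign, and its difference ran from 0.99 to 2.71 over the alternatives. Alox12b, Zpbp2, Dnaic2, Tex18, Slc11a1, Stab2, Prss38 and Wfdc10, unlike Meiob, were also called higher against the other trisomic lines. Those differences lay between 0.83 (Slc11a1) and 2.39 (Tex18), where 5.69% of genes outside chromosome 6 were called higher. Values of Tex13b, Kctd19 and Klk14 there are not given here. The comparison shares the Ts6 arrays by which the genes were chosen, so it is no separate test. The probes of 8 of these 12 highest genes lie in the right part of the array. Ros1, a receptor kinase gene, was at least 10.1-fold higher (adjusted p = 0.0024).

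Of the 12 lowest, Apcs, the serum amyloid P gene (mm9, chromosome 1, 174824959 to 174825018), was at -4.47 and -3.95 in Ts6, against -1.36 and -1.62 in WT, and fell by 2.72 ± 0.22 (adjusted p = 0.00072). Ctxn3 fell by 2.80 ± 0.33 (adjusted p = 0.0027), Gtsf1l, a paralogue of Gtsf1, by 2.65 ± 0.27 (adjusted p = 0.0015), and Rassf9 by 2.71 ± 0.42 (adjusted p = 0.0089). Developmental regulators were among them: Neurog3, a factor of endocrine pancreas, was at -4.26 and -4.07 in Ts6, against -2.09 and -1.08 in WT and fell by 2.58 ± 0.30 (adjusted p = 0.0028), and Bcl11a, a repressor in blood cells, was at -4.63 and -4.79 in Ts6, against -2.74 and -2.21 in WT and fell by 2.24 ± 0.34 (adjusted p = 0.0074). Jph4 fell by 2.59, Ntm by 2.38, Tdpoz3 by 2.33, Thbd by 2.29, Bhlha9 by 2.29 and Mcoln3 by 2.19. Against the other lines all 12 stood lower in Ts6, by between -0.78 and -2.43. That comparison shares the Ts6 arrays by which the 12 were chosen, so it is no separate test of them. Of the 12, 10 were called there, where 6.67% of genes outside chromosome 6 were called lower. Neurog3, by -0.78 (adjusted p = 0.08), and Rassf9, by -1.12 (adjusted p = 0.074), were not. Signals of 3 Y chromosome genes were near the bottom of the range in Ts6: Eif2s3y, a translation initiation factor gene, was at -8.18 and -8.14 in Ts6, against 0.84 and 0.70 in WT, and Ddx3y, an RNA helicase gene, at -8.14 and -8.12 in Ts6, against -0.69 and -0.69 in WT. Uty, a histone demethylase gene, was at -8.10 and -8.19 in Ts6, against -5.38 and -5.04 in WT (adjusted p = 0.00048). None of the 3 was well above background in Ts6, so Eif2s3y was at least 102-fold lower and Ddx3y at least 37.1-fold lower (adjusted p = 1.6e-06 and 2.1e-05). The other trisomic lines averaged -3.57 for Eif2s3y, -4.67 for Ddx3y and -7.66 for Uty, and the shift over 15 Y genes was -1.45 and -1.40 in Ts6, against between -1.23 and 0.24 in the arrays of those lines.

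**Figure D5:**
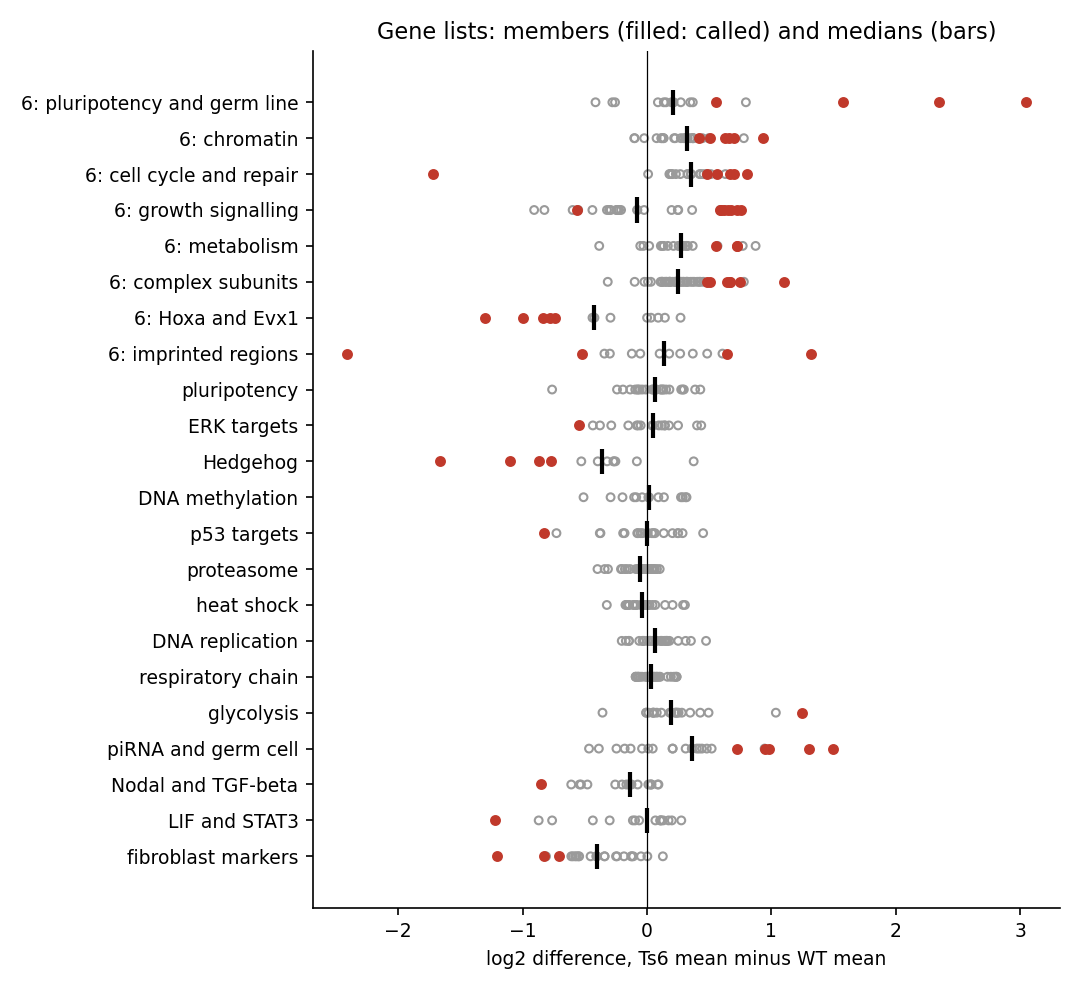
Log2 difference between the Ts6 and WT means (x axis) of every tested member of each gene list (rows); filled red points were called, open grey points were not, and black bars are list medians. Rows that start with 6 hold chromosome 6 genes, whose medians run from -0.42 (Hoxa) to 0.35 (cell cycle and repair); the other rows hold genes elsewhere.

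All lists of genes elsewhere, here and below, were read against the genes tested outside chromosome 6, of which 3.92% rose and 4.6% fell. In either direction 9.03% of all genes tested were called. The germ-cell list, with piRNA and meiosis genes, had 5 of 23 higher and none lower, with a median of 0.36. Gtsf1, a piRNA pathway gene, was at 1.23 and 1.07 in Ts6, against 0.17 and 0.17 in WT, and rose by 0.98 ± 0.12 (adjusted p = 0.0029). Dmc1, a meiotic recombinase gene, was at 0.40 and 0.45 in Ts6, against -0.56 and -0.50 in WT, and rose by 0.95 ± 0.14 (adjusted p = 0.0062). Mei1 rose by 1.30 ± 0.16 (adjusted p = 0.0033), Brdt, a testis bromodomain gene, by 1.49 ± 0.23 (adjusted p = 0.0091), and Sycp3, of the synaptonemal complex, by 0.73 ± 0.16 (adjusted p = 0.034). Between 3 and 5 members were called higher with 1 array left out. Against the other lines 3 members were higher and 3 lower, with a median of -0.13. Gtsf1 was higher there by 0.81 (adjusted p = 0.0024) and Brdt by 0.95 (adjusted p = 0.019), while Mael, a piRNA pathway gene, differed by -0.53 (adjusted p = 0.017). Dmc1 differed there by 0.30 (adjusted p = 0.12), Mei1 by 0.20 (adjusted p = 0.35) and Sycp3 by 0.15 (adjusted p = 0.49), without a call.

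Of 12 Hedgehog pathway genes 4 fell, none rose and 11 stood below their WT mean, called or not, with a median of -0.36. Ptch1, the receptor and a target of the pathway (mm9, chromosome 13, 63610298 to 63610357), was at -2.52 and -2.72 in Ts6, against -0.73 and -1.19 in WT, and fell by 1.67 ± 0.17 (adjusted p = 0.0015). Gli1, a transcription factor and target, was at 1.40 and 1.60 in Ts6, against 2.35 and 2.20 in WT, and fell by 0.77 ± 0.12 (adjusted p = 0.0081); 1 of its 2 probes had the other sign. Gli2 fell by 1.10 ± 0.22 (adjusted p = 0.021). Against the other trisomic lines Ptch1 differed by -0.08 (adjusted p = 0.74), Gli1 by -0.16 (adjusted p = 0.3) and Gli2 by -0.49 (adjusted p = 0.11), without a call. With 1 array left out between 1 and 3 members were called lower, Ptch1 in each case. The summed fibroblast markers were also lower in Ts6, and their part in these values was not tested.

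ERK targets had 1 of 18 lower and none higher, with a median of 0.04, and a link to the Braf difference was not tested. The 1 was Etv5, an ETS factor gene, at 3.09 and 3.04 in Ts6, against 3.60 and 3.62 in WT, which fell by 0.54 ± 0.11 (adjusted p = 0.021). Dusp6, the phosphatase gene that ERK induces, differed by -0.08, Spry4 by 0.04 and Egr1 by 0.40, none called (adjusted p = 0.81, 0.95 and 0.41). Of 25 pluripotency genes elsewhere limma called none, with 3 at an unadjusted p under 0.05 and a median of 0.06: Pou5f1 differed by -0.08, Sox2 by 0.05, Klf4 by 0.13 and Esrrb by 0.13. Likewise, limma called none of 30 proteasome subunits (median -0.06, 3 at an unadjusted p under 0.05), 24 heat shock genes (-0.04, 1), 29 replication genes (0.07, 3), 30 respiratory chain genes (0.03, 1) or 14 DNA methylation genes (0.01, 3). Of 21 p53 targets 1 fell, the desmosome gene Perp, by 0.83 ± 0.13 (adjusted p = 0.0086), and Cdkn1a differed by 0.29 (adjusted p = 0.69). In the comparison with the other trisomic lines 5 of the 21 were called lower and none higher, with a median of -0.35. Of genes outside chromosome 6, 6.67% were called lower there. The glycolysis list had Aldoc higher, by 1.25 ± 0.28 (adjusted p = 0.036), of 22, with 19 above their WT mean and a median of 0.19. In the LIF list Sp5 fell by 1.22 ± 0.21 (adjusted p = 0.013), and in the Nodal and TGF-beta list Id2 fell by 0.85 ± 0.21 (adjusted p = 0.048), each alone in its list. Calls of Sp5, Id2, Aldoc, Perp and Etv5 were all lost without Ts6 replicate 1, and that of Etv5 without any 1 array. Of 42 named and called genes outside chromosome 6, 23 kept their call in all 4 fits with 1 array left out.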

How the data were processed

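The RNA of 2 biological replicates a line was amplified, labelled with Cy3 and hybridised to 1-colour Agilent mouse arrays, per the labels' protocols. Per the file headers, the deposited spot intensity values came from Agilent Feature Extraction 10.7.3.1, with background correction off and spatial detrending on. From the processed signal, log2 values were taken and each array's 75th percentile (over noncontrol spots) subtracted. Probes had to be well above background on both arrays of some line, and a gene was read from its brightest probe; 28188 genes were tested. The deposited log2 series table, with centring not given in the sources used here, served as an alternative; its column medians lay between -3.41 and -3.31. Column titles matched all arrays, and 0 value columns were left unmapped.

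One mean per line was fitted over all 10 arrays with limma 3.58.1 (R 4.3.3), with Benjamini-Hochberg adjustment over all genes tested and a call at an adjusted p under 0.05. Residual degrees of freedom were 5, plus 2.67 from the prior. Chromosome and interval shifts were tested by exact two-sided permutation over arrays. The scripts were tested on simulated data. Of 29060 probes with an accession, 26863 matched RefSeq, which gave current names.

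Named genes were the members of the gene lists, the 12 highest and 12 lowest called genes on chromosome 6 and elsewhere among well-measured annotated genes with non-overlapping groups, the gene of the smallest adjusted p in each interval, and the extreme bounds of genes not well above background in one group. A bound set the brighter group's mean against the lowest signal well above background. The members and lists were chosen with earlier results of these data known. Replicate numbers share a slide row only: deviations of same-numbered Ts6 and WT arrays correlated at 0.06, so the numbers were not taken as pairs. Alternatives covered normalization, background correction, the dim-probe filter, the probe rule, the arrays fitted, passage, a replicate block, interval width and each array left out. A few list members are counted in their lists and not reported here by name.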

Additional observations from a re-analysis of the deposited data

Results flagged for a closer look

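Against the 6 arrays of Ts8, Ts11 and Ts15, the Ts6 arrays stood 0.226 higher in the chromosome 6 shift (exact two-sided permutation p = 0.036, the smallest that 28 splits allow), with both Ts6 arrays above all 6. By the same test the chromosome 9 shift of Ts6 was 0.044 higher than in those lines (exact permutation p = 0.036), also in both arrays, although chromosome 9 is diploid in all of them. The 2 values were picked out because lines differed in a test of the difference itself. The cause of the chromosome 9 value was not tested.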

How the results depend on the processing

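No direction of a summary result reversed under any alternative. With 2 arrays a group the counts of calls depended on the arrays fitted. Of 2545 genes called in Ts6 against WT, 1692 were called with the 4 arrays alone and 821 with passage as a covariate, and between 794 and 1555 with 1 array left out. For chromosome 6 the 208 higher genes became 101, 47 and between 40 and 98 in those fits, and the 34 lower ones 8 with passage and between 6 and 24 with 1 array left out. The 58 called list members became 23, 11 and between 9 and 29. Against the other trisomic lines 3754 genes were called, and between 715 and 3504 with 1 array left out. The chromosome 6 shift of 0.199 was the same with the 4 arrays alone, where its exact permutation p of 0.333 is the smallest possible, and lay between 0.194 and 0.205 with 1 array left out (p = 0.111 without a Ts6 array, the smallest possible). Over all alternatives it ran from 0.165 to 0.293; the highest, over bright protein-coding genes, was among those chosen after seeing the data. Of 15 intervals 13 were called, 0 with the 4 arrays alone and between 0 and 13 with 1 array left out, since the permutation p cannot pass there without both Ts6 arrays and the other lines. With 20 Mb intervals 8 of 8 were called. A replicate block gave 2603 genes, 216 higher and 33 lower on chromosome 6, 62 list members, 13 intervals and a shift of 0.199 (exact permutation p = 0.04), and moved no count by over 1.5 times. Calls of single genes are limited by the number of arrays and by passage, which differs between the Ts6 arrays.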
